A study of Mus musculus with 36 samples.

Results

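Changes in liver H3K9me3 with maternal obesity (MO) were examined in 8-week-old female offspring, as the contrast of MF_8w (daughters of obese dams, 4 ChIP libraries) with CF_8w (daughters of control dams, 4 ChIP libraries). All rows of the deposited table of that contrast that lie on chromosomes 1 to 19 were taken, which gave 109596 autosomal bins of the 116257 bins in the table and of 786789 rows over the 6 comparisons of the series. A bin is a stretch of about 500 bp or less of an H3K9me3 peak. The other 6661 bins lie on chromosome X and were left aside. A positive log2 fold change means more H3K9me3 with MO.

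Maternal diet, sex and age (3 or 8 weeks) define 8 groups with 4 ChIP libraries each, 32 in the whole series, and 4 input libraries were not used here. MF dams received a Western-style diet and CF dams chow from before mating until the end of lactation. Both groups of offspring were weaned at 3 weeks, ate chow from then on and were killed in the fed state at 8 weeks. Per the study's methods, the dams were mated with wild-type C57BL/6J males, the offspring were Reg3g fl/+ or Reg3g fl/fl animals described as floxed littermate controls from an in-house colony on C57BL/6J, and the 4 replicates of a group were biological. Neither the genotype of each library nor the number of dams or litters behind the 4 animals of a group was given in the sources used here. The diet was given to the dams, littermates would share a dam, and the authors' test has no term for litter. Chromatin came from whole frozen liver, in which a lower level per cell and fewer cells carrying the mark cannot be told apart.

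H3K9me3 is trimethylation of lysine 9 on histone H3. It is written by the SUV39H and SETDB1 methyltransferases, is read by HP1 proteins, and keeps repeats, silenced gene clusters and genes of other cell types compacted. In the liver its loss is known to release genes of other lineages, and it is normally sparse at CpG-rich start sites of active genes. The contrast asks whether exposure to an obese mother leaves a trace in this mark after weeks on an ordinary diet.

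Of the 7 promoters with the smallest p-values 5 are shown first, because they illustrate the main feature of the contrast: most promoter bins that were lower with MO were GC-rich and dense in CG dinucleotides, and most of those that were higher were not. The sequences are the plus strand of GRCm38.p6 (RefSeq), 5′ to 3′, with each CG in capitals. Each is the part of the bin, up to 300 bases, that overlaps no annotated UTR or non-coding exon. Of the other 2, the Spi1 bin left too short a stretch by this rule, and one is not shown. The first 4 were lower with MO and the last was higher.

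AW011738, chr4:156203511-156203741: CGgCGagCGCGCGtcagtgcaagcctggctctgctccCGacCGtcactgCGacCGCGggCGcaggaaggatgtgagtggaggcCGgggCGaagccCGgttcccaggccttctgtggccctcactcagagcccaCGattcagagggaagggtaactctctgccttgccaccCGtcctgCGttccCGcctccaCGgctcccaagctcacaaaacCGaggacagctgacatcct
Myt1l, chr12:29842615-29842914: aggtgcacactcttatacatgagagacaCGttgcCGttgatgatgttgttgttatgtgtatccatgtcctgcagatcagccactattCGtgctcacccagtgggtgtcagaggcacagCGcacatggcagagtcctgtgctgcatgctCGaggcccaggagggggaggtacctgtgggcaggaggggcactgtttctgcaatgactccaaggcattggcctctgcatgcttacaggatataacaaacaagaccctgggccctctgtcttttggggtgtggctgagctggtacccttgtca
Zc3h15, chr2:83644303-83644434: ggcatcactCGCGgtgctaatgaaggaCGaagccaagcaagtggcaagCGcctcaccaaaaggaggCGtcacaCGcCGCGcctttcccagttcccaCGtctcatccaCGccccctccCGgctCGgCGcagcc
Nfrkb, chr9:31385880-31386179: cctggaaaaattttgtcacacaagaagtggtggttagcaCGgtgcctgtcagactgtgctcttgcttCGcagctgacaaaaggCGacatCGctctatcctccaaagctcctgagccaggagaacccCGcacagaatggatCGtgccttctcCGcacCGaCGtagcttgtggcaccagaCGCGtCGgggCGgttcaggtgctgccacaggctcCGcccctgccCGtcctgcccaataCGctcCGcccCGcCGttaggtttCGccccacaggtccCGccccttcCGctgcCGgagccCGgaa
Syt7, chr19:10402413-10402712: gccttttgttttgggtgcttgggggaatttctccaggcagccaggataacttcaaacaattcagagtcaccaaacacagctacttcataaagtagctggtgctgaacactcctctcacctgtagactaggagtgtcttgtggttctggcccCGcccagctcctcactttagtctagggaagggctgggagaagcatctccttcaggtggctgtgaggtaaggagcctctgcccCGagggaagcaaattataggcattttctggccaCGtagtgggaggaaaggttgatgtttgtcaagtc

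The AW011738, Zc3h15 and Nfrkb stretches held between 8.00 and 9.85 CG per 100 bases, and the Myt1l and Syt7 stretches 1.67 and 1.00. The median over all autosomal bins was 2.03 per 100 bases and over promoter bins 3.19. The letters CG on either strand were present in 99.4% of the 65021 bins of full width, so it is their density and not their presence that varies. AW011738 is an expressed sequence of unstated function, Zc3h15 encodes a CCCH zinc finger protein and Nfrkb a subunit of the INO80 chromatin remodeller. Myt1l encodes a transcription factor of neurons that represses other fates, and Syt7 a calcium sensor of vesicle fusion.

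No autosomal bin passed a false discovery rate (FDR) of 0.05 in the authors' edgeR exact test, in which the smallest FDR was 0.361. At an unadjusted p under 0.05 there were 7711 autosomal bins (7.04%), against 5479.8 from a uniform distribution of p. At p under 0.01 there were 1681 (1.53% of all bins), of which 788 (0.719%) were higher and 893 (0.815%) lower with MO. At p under 0.001, the threshold the study used for MO, there were 184 (0.168%), against 109.6 from a uniform distribution, with 76 higher (0.0693%) and 108 lower (0.0985%). The listed bins are 1 per peak, kept by a rule that the sources used here do not give, whereas the uniform counts assume bins listed without regard to p, so the part of that rule in the excess over uniform was not tested. All differences described from here on are nominal in this sense, and every exact p is the deposited one, unadjusted. The median log2 fold change over all autosomal bins was 0.01 and the median size 0.31, while the 184 called bins had a median size of 1.44. Bins were shallow, with a median average level of 6.14 CPM (counts scaled to library size), and 5.92 among the called bins. The table holds fold changes and average levels but no values per library, so the spread between animals enters only through p. An approximate standard error (SE) was taken from each fold change and its p, and every ± below is that SE, with 4 libraries per group.

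**Figure D1:**
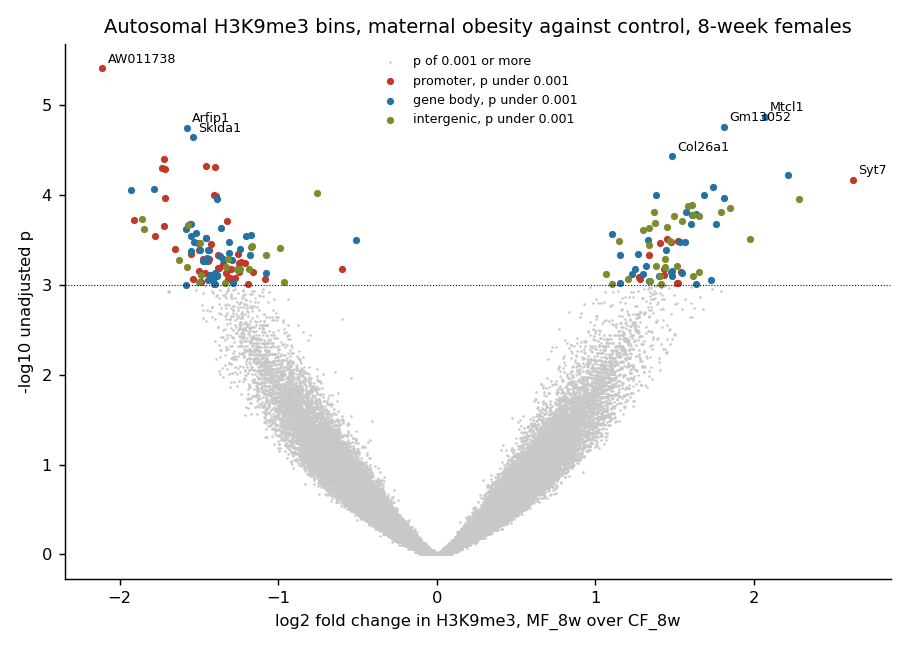
Each point is an autosomal bin, with the log2 fold change of MF_8w over CF_8w on the x axis and -log10 of the unadjusted p on the y axis. Coloured points are the 184 bins at p under 0.001 (62 promoter, 71 gene body, 51 intergenic), the dotted line marks that threshold, and promoter points lie mostly on the lower side (49 of 62, which became 25 of 54 once the GC and CPM trend was subtracted).

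Among bins in promoters or gene bodies that were lower with MO, the smallest p belonged to the AW011738 promoter, 207 bp past its start at chr4:156203511-156203741 (GRCm38). Its H3K9me3 was 4.32-fold lower with MO (log2 fold change -2.11 ± 0.46, exact p = 3.86e-06, average 5.04 CPM). Next on the lower side came intron 3 of 9 of a transcript given to Arfip1, at chr3:84997894-84998394 and 45.7 kb from the start of Fbxw7, the substrate adaptor of a ubiquitin ligase (-1.58 ± 0.37, exact p = 1.78e-05). Exon 2 of 2 of Skida1, 7.43 kb from the start of Mllt10, was lower by a similar size (-1.54 ± 0.36, exact p = 2.26e-05). The Myt1l bin, 2.40 kb past the start, gave -1.72 ± 0.42 (exact p = 4e-05). Bins that contain the start site of Zc3h15 (-1.46), Spi1 (-1.40), Nfrkb (-1.73) and 4931414P19Rik (-1.71) had p between 4.69e-05 and 5.1e-05. Spi1 encodes PU.1, the transcription factor of macrophages and B cells. A bin inside Sorl1, the gene of a sorting receptor, and in exon 3 of 4 of its antisense transcript Gm16214, gave -1.78 (exact p = 8.57e-05).

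Of the 10 bins in genes or promoters with the smallest p on the higher side, 9 lay in gene bodies and 1 in a promoter. Intron 3 of 13 of Mtcl1, a microtubule crosslinking factor, was 4.19-fold higher at chr17:66405209-66405709 (2.07 ± 0.47, exact p = 1.33e-05, 5.04 CPM). The non-coding transcript Gm13052, 91.1 kb from the start of Kazn, gave 1.81 ± 0.42 in its intron 3 (exact p = 1.73e-05). Intron 3 of 12 of Col26a1, a collagen gene, gave 1.48 ± 0.36 (exact p = 3.65e-05). An intron of the antisense transcript 1700026D11Rik, 20.2 kb from the start of Gpcpd1, gave 2.21 ± 0.55 at only 4.11 CPM (exact p = 5.92e-05). The Syt7 promoter bin, 1.21 kb before the start at chr19:10402313-10402813, had the largest fold change of any autosomal bin (6.17-fold, 2.62 ± 0.66, exact p = 6.74e-05) and also the lowest average level, 3.44 CPM. Sh3glb1 intron 5 (1.74), Adam29 intron 1 (1.38), the 3′ UTR of Syk (1.69), Cadps2 intron 18 (1.81) and exon 9 of Bahcc1 (1.57) completed the 10, with p from 8.02e-05 to 0.000152. Sh3glb1 encodes endophilin B1, Syk a kinase of immune receptors, and Cadps2 a factor for exocytosis of dense-core vesicles. Repeats made up 82.1% of the Adam29 bin and 82.4% of the Cadps2 bin, against a median of 12.2% over all bins.

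In distal intergenic sequence the 3 smallest p-values on the lower side were 48.9 kb from Aasdhppt, 43.3 kb from the glutaredoxin pseudogene Gm12669 and 127.0 kb from 4933406K04Rik. The Aasdhppt bin had a higher average, 46.2 CPM, and a smaller change (-0.76 ± 0.19, exact p = 9.47e-05), whereas the other 2 changed by -1.86 and -1.57 at about 5 CPM (4.44 and 5.37). On the higher side they were 34.0 kb from Grm3, a metabotropic glutamate receptor gene (2.28 ± 0.59, exact p = 0.00011, wholly repeat sequence), 49.5 kb from the hormone gene Stc2 (1.61) and 170.4 kb from Ptprd (1.85). Among bins chosen after their values were seen, an intron of Gm36264 on chromosome 13 was the deepest autosomal bin called, at 665.6 CPM, and had the smallest change of the 184 (-0.51 ± 0.14, exact p = 0.000319). At the threshold itself, Tal1 (-1.40, exact p = 0.000985, and approximate p 0.00254 with the GC and CPM trend subtracted) and Zcchc24 (-1.58, exact p = 0.000991) were just inside, Gm20383 (-1.21, exact p = 0.001005) and Gm10635 (1.39, exact p = 0.001009) just outside.

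The direction of the nominal changes moved with position relative to genes. Of 23563 promoter bins (within 3 kb of a start), 62 (0.263%) were called, 13 higher and 49 lower. Of 43480 gene body bins 71 (0.163%) were called, 33 higher and 38 lower, and of 42553 intergenic bins 51 (0.12%), 30 higher and 21 lower. At p under 0.01, 153 promoter bins were higher and 399 lower, and 325 intergenic bins were higher and 208 lower, the same order as at p under 0.001. In gene bodies the order turned, with 310 higher and 286 lower. The shift was not limited to the called bins, since the median log2 fold change was -0.11 in promoters, 0.02 in gene bodies and 0.05 in intergenic sequence, and 57.4% of promoter bins had a negative change against 45.5% of intergenic bins.

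The shift was graded with distance. The 8503 bins that contain a start site had a median of -0.20, and 195 of their 232 bins at p under 0.01 were lower. Bins up to 1 kb away had a median of -0.11, those from 1 to 3 kb 0.00, those from 10 to 50 kb 0.02, and those over 200 kb 0.07. In that last class 85 of 133 bins at p under 0.01 were higher. Within promoters the lower calls came from the first kilobase (39 lower and 8 higher), with 7 lower and 3 higher from 1 to 2 kb and 3 lower and 2 higher from 2 to 3 kb.

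**Figure D2:**
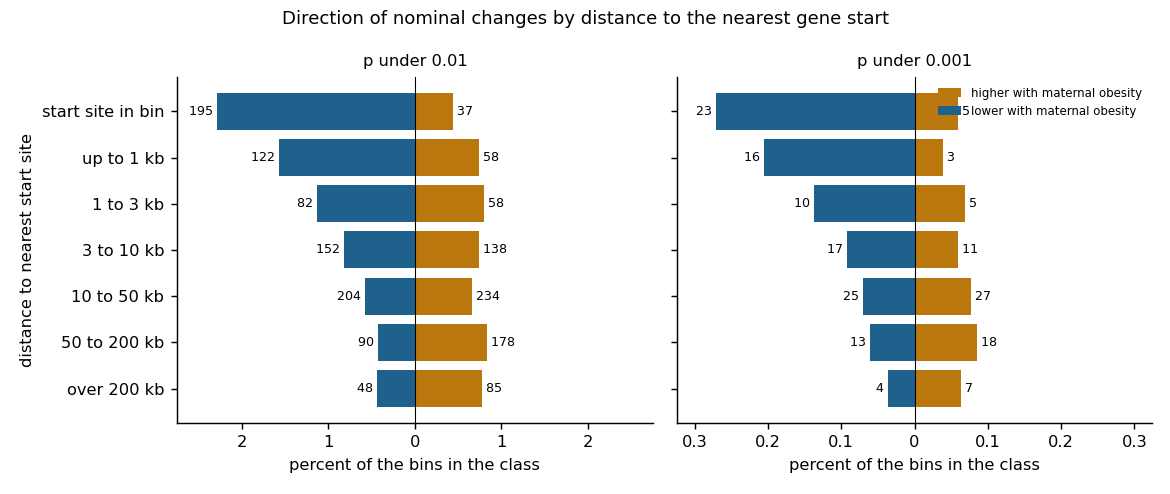
Bars give the percentage of bins in each distance class that were higher (right) or lower (left) with MO, at p under 0.01 and p under 0.001, with the number of bins at the end of each bar. Lower bins outnumber higher ones most where the bin holds the start site (195 against 37 at p under 0.01), and the order turns beyond 10 kb (204 against 234 from 10 to 50 kb). With the GC and CPM trend subtracted, promoter calls at p under 0.001 were 25 lower and 29 higher.

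The called promoters belonged to genes of many kinds, and those named in this paragraph were chosen after their values were seen. Among the 49 lower ones were Deptor, an inhibitor of mTOR (-1.41, exact p = 0.0001), Top1, which encodes topoisomerase I (-1.32), Prkar2a, a regulatory subunit of protein kinase A (-1.78), Klf10, a zinc finger repressor (-1.38), Bcl2l11, which encodes the pro-apoptotic protein BIM (-1.55), Acot2, a mitochondrial acyl-CoA thioesterase (-1.16), and Rif1, a factor of replication timing (-1.19). After subtraction of the GC and CPM trend described in the next paragraph, none of these 7 bins was under 0.001 (approximate p from 0.00106 to 0.00735), nor was the higher Or2c1 bin named in this paragraph (0.00106). Acot2 and Klf10 each also had 1 bin at p under 0.01 that was higher, and the median over the 3 Acot2 bins was 0.48. The Taco1 bin stood apart in depth, at 82.5 CPM, and its change was -0.60. Among the 13 higher ones were the B cell factor Pax5 (1.54), the cardiac and pharyngeal homeobox gene Nkx2-6 (1.45), and the olfactory receptor genes Or1e22 (1.43) and Or2c1 (1.51).

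Base composition moved with the promoter shift. The median GC content was 66.2% in the 49 lower promoter bins and 54.2% in the 13 higher ones, against 57.9% over all promoter bins, and the CG densities were 9.38, 1.85 and 3.19 per 100 bases. In the decile of bins with the highest GC content (61.5% or more), 37 of 38 called bins were lower and the median log2 fold change was -0.21. In the 8000 promoter bins of that decile the median was -0.26, with 227 lower and 22 higher at p under 0.01. The gene body and intergenic bins of the same decile (1440 and 1449 bins) had medians of -0.06 and -0.05. Promoter bins in the 4 deciles of lowest GC content had medians of 0.01 to 0.05. Across all 109596 bins, which come from the same 8 libraries and are not independent, Spearman's rho between GC content and log2 fold change was -0.13. Once the median of each combination of GC decile and CPM decile was subtracted, 29 promoter bins were higher and 25 lower at p under 0.001. In gene bodies 26 bins were then higher and 41 lower, and in intergenic sequence 31 and 28. The excess of lower over higher promoter calls was thus not present after that subtraction, and the median of promoter bins moved from -0.11 to -0.04. The decile of highest GC content holds 8000 promoter bins against 1440 and 1449 others, so the medians subtracted there largely hold the promoter shift itself. The subtraction therefore cannot tell GC content and promoter position apart. The part of GC content in the promoter result, whether from the libraries or from the chromatin, was not tested.

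**Figure D3:**
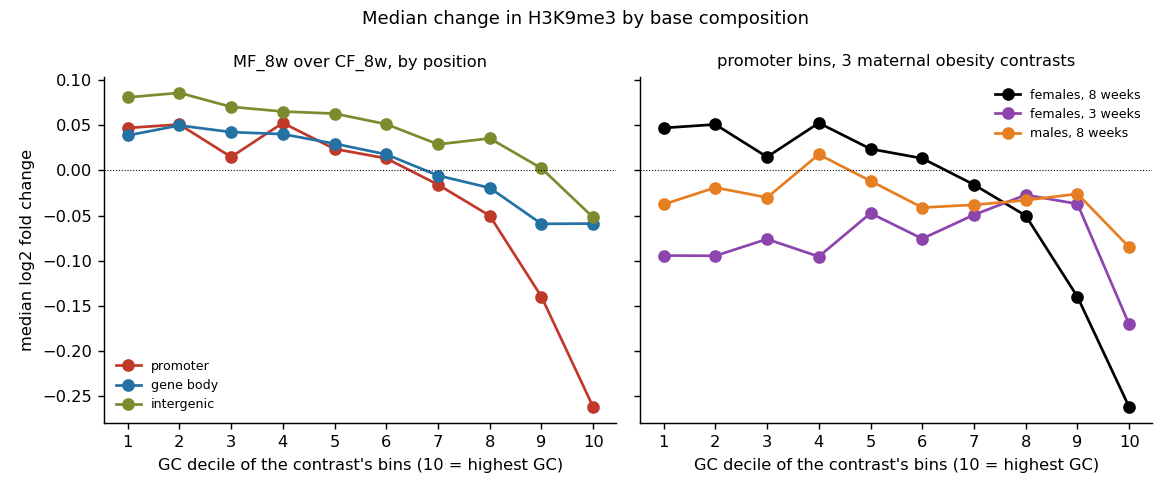
Points are median log2 fold changes of bins grouped in deciles of GC content. On the left are promoter, gene body and intergenic bins of MF_8w over CF_8w, and promoters fall to -0.26 in the highest decile while the others stay above -0.10. On the right are promoter bins of 3 MO contrasts, and in that decile females at 3 weeks reach -0.17 and males at 8 weeks -0.08.

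The promoter pattern was also read in 2 of the 3 other MO contrasts, which share no library with this one. Males at 3 weeks were not analysed here. In females at 3 weeks, 283 of 133697 autosomal bins (0.212%) were called, the promoter median was -0.10, and 48 called promoter bins were lower and 30 higher. In males at 8 weeks, 114 of 101386 (0.112%) were called, the promoter median was -0.04, and 23 called promoter bins were lower and 7 higher. The rank correlation between GC content and change was 0.00 and -0.01 in these contrasts. Whether the medians differ between the contrasts was not tested.

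Hepatocyte genes were described with 2 lists. The hepatocyte identity list (transcription factors and secreted products) had bins for 20 of 26 genes, 88 in all, with a median log2 fold change of -0.04 against 0.01 over all autosomal bins. In it 6 bins (6.82%) were at p under 0.01, with 5 lower and 1 higher, against 1.53% over all bins. With the GC and CPM trend subtracted there were 4 lower and 3 higher. Both bins at p under 0.001 were lower. One of them lies 1.77 kb before the start of Foxa2, the pioneer factor that opens liver enhancers (-1.40 ± 0.36, exact p = 0.000101, 7.72 CPM). A second Foxa2 bin, 200 bp before the start, was lower too (-1.10 ± 0.42, exact p = 0.00787), as were an exon of Prox1 (-1.22, exact p = 0.00338) and a distal bin of Nr5a2 (-1.23, exact p = 0.00348). The 1 bin that was higher lay 3.39 kb before Foxa1 (0.94, exact p = 0.00568). A bin 6.38 kb before the Foxa2 start had the opposite sign, at 0.94 (exact p = 0.021). Alb and the fibrinogen genes Fga, Fgb and Fgg had no bin, and the single bins of Apoa1 and Ttr gave -0.08 and -0.15 (exact p = 0.872 and 0.768).

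Fat oxidation and ketogenesis genes had 129 bins in 27 of 32 genes, with a median of -0.09. All 4 bins at p under 0.01 (3.1%) were lower, against 1.53% of all autosomal bins in either direction and 0.815% lower. Of the 4, 3 were promoters, and promoter bins as a whole had 399 lower and 153 higher. With the GC and CPM trend subtracted, 2 were lower at p under 0.01. The bin 21 bp before the start of Ppara, the nuclear receptor that turns on fat oxidation, was 2.70-fold lower at chr15:85735043-85735543 (-1.43 ± 0.41, exact p = 0.000513, 5.62 CPM). The promoter of Acaa1a, a peroxisomal enzyme of fat oxidation, followed (-1.14, exact p = 0.00584). The 3 other Ppara bins gave -0.39, -0.35 and -0.22 (exact p = 0.259, 0.482 and 0.593). After subtraction of the GC and CPM trend the approximate p of the Ppara bin was 0.00553, no longer under 0.001, whereas that of the Foxa2 bin 1.77 kb before the start was 0.000105. The Acaa1a promoter (0.0123) and the second Foxa2 bin (0.0464) were no longer under 0.01.

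In the remaining metabolic lists 0% to 2.37% of bins were at p under 0.01, against 1.53% over all bins. Fat synthesis had 2 of 172 bins at p under 0.01, Acacb lower (-1.22) and Lpin1 higher (1.09). Lipid droplet genes (87 bins) and circadian clock genes (117 bins) had none. Cholesterol and bile acid genes had 3 of 136, 2 higher, among them a promoter bin of Lss (1.08), and Scap lower (-1.21). Insulin and glucose genes had 5 of 219, among them Ptpn1 (-1.22), which encodes the phosphatase PTP1B, and Pik3r1 (1.15). Detoxification genes (Cyp, Ugt, Gst, Sult) had 8 of 375, 4 in each direction, and nuclear receptor genes 9 of 380, 3 higher and 6 lower. In the last list the retinoic acid receptor gene Rara was lower at its start (-1.27, exact p = 0.00247) and 2 promoter bins of the thyroid hormone receptor gene Thra were higher (1.18 and 1.15). The growth hormone list had 2 of 115, a distal bin near the major urinary protein gene Mup21 that was higher (1.38, exact p = 0.000204) and an intron bin of the repressor gene Bcl6 that was lower (-1.10, exact p = 0.0033). Rara (approximate p 0.0193), Scap (0.0161) and Lpin1 (0.014) were no longer under 0.01 with the GC and CPM trend subtracted.

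Genes known as targets of H3K9me3 and other gene families were described by further lists, whose shares stand against 1.53% of all autosomal bins at p under 0.01. Zinc finger genes, whose clusters are heavily marked, had 28 of 1775 bins at p under 0.01 (1.58%), 15 higher and 13 lower, with Zfp536 (1.53) and Zfp423 (-1.27) at p under 0.001. The clustered protocadherins had 1 of 57, imprinted genes 5 of 453 and vomeronasal and other chemosensory receptor genes 6 of 693, a list that does not cover the olfactory receptor genes with symbols such as Or1e22. Transcription factors of other lineages had 12 of 796 (1.51%), 7 higher and 5 lower, with Lhx4 (1.59), Pax5 (1.54) and Sox1 (-1.31) at p under 0.001. Adhesion genes had 24 of 2195 (1.09%), 17 higher and 7 lower, with a median of 0.07, and ion channel genes 26 of 2029 (1.28%), 16 higher and 10 lower. Matrix genes had 21 of 1044 (2.01%), with Col26a1 (1.48) and Col6a3 (1.30) higher and Adamts10 (-1.31) lower at p under 0.001. Genes of the H3K9 and DNA methylation machinery had 2 of 180, the promoters of Tet3 (1.47, exact p = 0.00448) and Ehmt2 (-1.09, exact p = 0.00618). Immune genes had 9 of 785, fetal liver genes 1 of 105 and ribosomal protein genes 6 of 190 (3.16%), 2 higher and 4 lower. With the GC and CPM trend subtracted, the Zfp423 bin was no longer under 0.001 (approximate p 0.00784) and the Ehmt2 promoter no longer under 0.01 (0.0147).

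**Figure D4:**
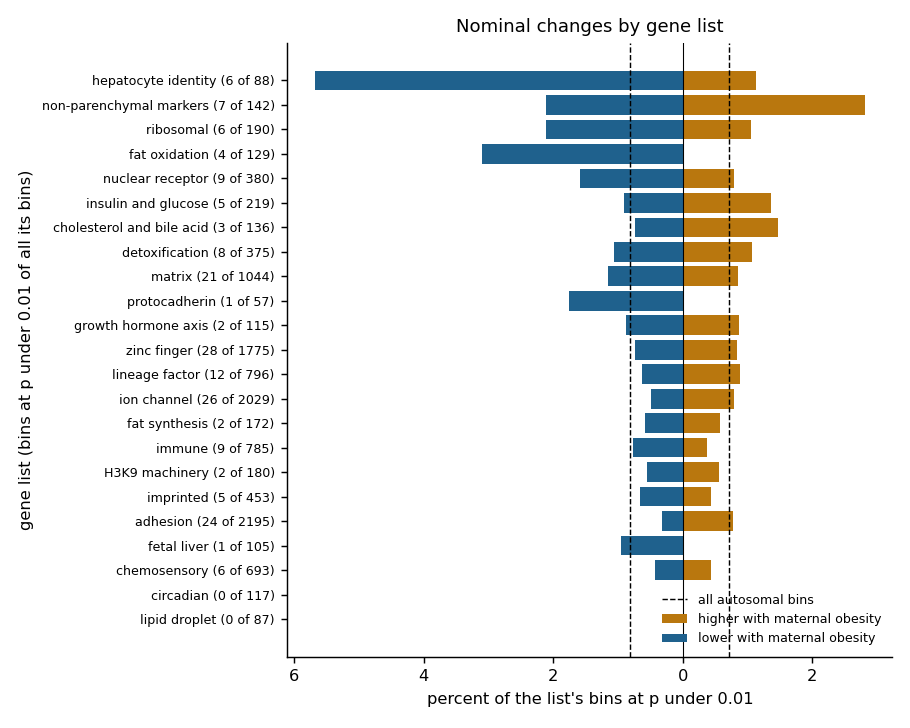
Bars give the percentage of each gene list's bins at p under 0.01 that were higher (right) or lower (left) with MO, and the dashed lines give the same for all autosomal bins (0.719% and 0.815%). Hepatocyte identity (5 lower and 1 higher of 88 bins) and fat oxidation (4 lower of 129) reach farthest to the left. With the GC and CPM trend subtracted, which is not drawn, they had 4 lower and 3 higher, and 2 lower and 0 higher.

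Markers of the cell types that whole liver can hold were examined as a description of the tissue. Of 10 hepatocyte markers 8 had a bin, 27 bins with a median of -0.19. At p under 0.001, where 0.168% of all autosomal bins were, there were 2, Foxa2 among them. Both are also the 2 counted in the hepatocyte identity list. Kupffer cell markers (28 bins), stellate cell markers (44) and endothelial markers (43) had medians of 0.08, 0.07 and 0.07, cholangiocyte markers (20) -0.10 and lymphocyte markers (7) -0.23, with no bin of these 5 types at p under 0.001. At p under 0.01 hepatocyte markers had 3 bins, endothelial markers 4, Kupffer cell, stellate cell and lymphocyte markers 1 each, and cholangiocyte markers 0. Levels ran from 4.3 to 10.9 CPM over the 6 marker lists. The 5 types other than hepatocytes together had 7 of 142 bins at p under 0.01 (4.93%, against 1.53% over all bins). Of the 7, 4 were higher and 3 lower, among them Cdh5 (1.13 and 1.15) and Pecam1 (-1.19). A part of cell composition in the results was not tested. Because H3K9me3 is a mark of repression, levels at a marker gene do not measure its cells.

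The table lists 1 bin per peak, so other bins of the same peak could not be called beside it. No 2 of the 184 lay within 10 kb of each other, and they were assigned to 184 different genes. Of 166 neighbouring bins within 10 kb of a lower bin 91 (54.8%) had the same sign, and of 88 neighbours of a higher bin 41 (46.6%). At 100 kb the shares were 51.5% and 51.0%. At p under 0.01, where 1.53% of all autosomal bins were, 118 genes had at least 2 bins, and in 36 all were higher, in 23 all lower and in 59 mixed. In all, 13 genes had 3 such bins and none had 4. In Agbl1, Wwox, Smad2 and Gse1 all 3 were higher, in 4930591A17Rik, Ttc28 and Zfhx3 all 3 were lower. Ttc28 has 39 bins with a median of -0.11 and Zfhx3 68 with a median of -0.001. A gene with more bins has more chances of several at p under 0.01, and the part of bin number in these counts was not tested. With the GC and CPM trend subtracted, 1 of the 3 bins of Wwox and of Zfhx3 was no longer under 0.01 (approximate p 0.0207 and 0.0444). Wwox, a gene over a fragile site, has 105 bins with a median of 0.13, Smad2 encodes a mediator of TGF-beta signalling and has 27 with a median of -0.04, and Col26a1 had 1 bin higher (1.48) and 1 lower (-1.24).

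Peak size, repeats and chromosome were examined last. Bins from peaks of a single bin (36609) were called at a share of 0.161% (32 higher and 27 lower) and bins from peaks over 5 kb (6347) at 0.347% (5 higher and 17 lower). At p under 0.01 the share was 1.27% in the first class and 4.24% in the last. Each peak has exactly 1 bin in the table, and how that bin was chosen is not given in the sources used here, so its part in the trend with peak size was not tested. Bins with no repeat sequence had a median of -0.04 and those with 75 to under 100% repeats 0.07, and at p under 0.01 the latter had 107 higher and 49 lower. The calls were spread over all autosomes, from 2 on chromosome 16 to 15 each on chromosomes 2 and 11. Chromosome 2 had 12 lower and 3 higher and chromosome 11 had 11 lower and 4 higher, whereas chromosome 5 had 2 lower and 7 higher. The number of bins on each chromosome is not set beside these counts, whereas over all autosomes 0.168% of bins were called. Chromosomes 2, 11 and 5 are named because of their counts, and whether share or direction differs between chromosomes was not tested.

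Whether the same bins moved in the other offspring was examined in the same 2 MO contrasts. At 3 weeks in females, 106 of the 184 bins had a counterpart and 53 of them (50%, exact binomial 95% interval 40.1 to 59.9) had the same sign, against 51.3% over all 71972 matched bins. At 8 weeks in males, 69 had a counterpart and 34 (49.3%, interval 37.0 to 61.6) had the same sign, against 50.5% over 48931. These intervals treat bins as independent, which they are not. No bin was at p under 0.001 in this contrast and in either of the others. There, 0.212% (3-week females) and 0.112% (8-week males) of all autosomal bins were called. At shares this low, 106 and 69 bins cannot show whether an overlap is lacking. At p under 0.01, 17 of 892 matched bins were shared with females at 3 weeks, 14 of them with the same sign. With males 8 of 604 were shared, 3 with the same sign. Whether these overlaps differ from the shares over all matched bins was not tested. The median change of the lower bins was -0.03 in 3-week females and -0.05 in 8-week males, and of the higher bins -0.05 in both.

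The difference between contrasts was also tested bin by bin, as the difference of the 2 fold changes over its approximate SE (two-sided, Benjamini-Hochberg adjusted). None of 61664 bins differed from females at 3 weeks at an adjusted p under 0.05 (smallest 0.566), with 3716 (6.03%) at an unadjusted p under 0.05. None of 42627 differed from males at 8 weeks (smallest 0.373), with 2633 (6.18%) at an unadjusted p under 0.05. So an MO effect particular to 8-week females was not detected for any single bin, which does not show that there was none. For the named bins the values stand side by side, and their choice by p in this contrast favours larger values here. Spi1 gave -1.40 here, -0.14 at 3 weeks and -0.24 in males. Ppara gave -1.43 and, at 3 weeks, -0.41. Foxa2 gave -1.40, 0.51 at 3 weeks and -0.02 in males, and Gm13052 gave 1.81, 0.63 and -0.37. Syk gave 1.69 and -0.64 at 3 weeks.

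**Figure D5:**
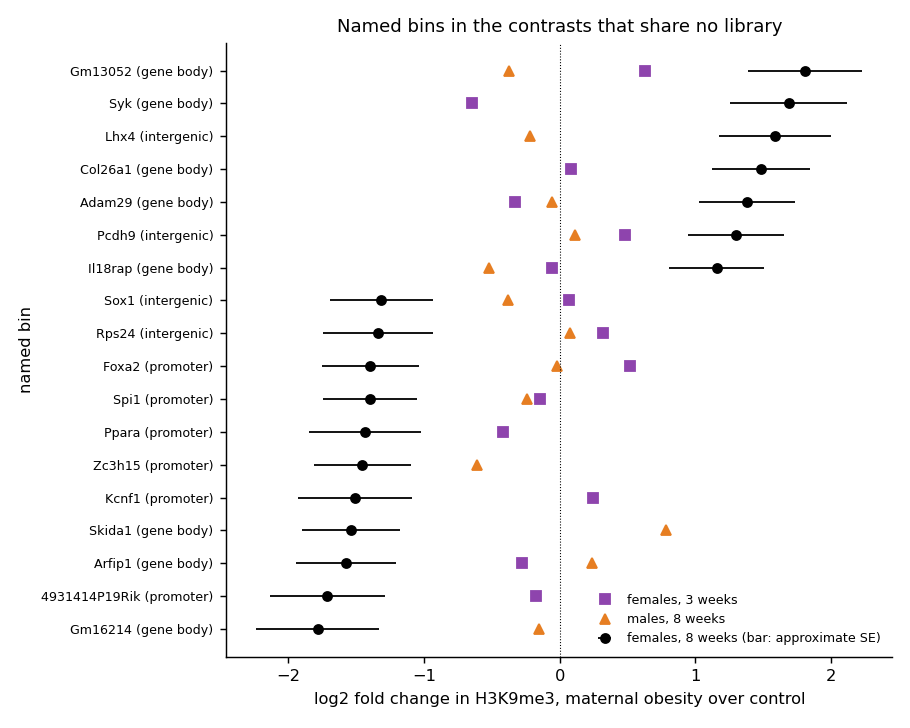
Black points are log2 fold changes of 18 named bins at p under 0.001 in MF_8w over CF_8w, with bars for the approximate SE. Squares are the same bins in females at 3 weeks (14 bins) and triangles in males at 8 weeks (13 bins), and most of these lie nearer to 0 on either side of it. The bins were chosen by p in MF_8w over CF_8w, and that choice alone favours larger values there.

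CF_8w also serves in the table of ageing in control females (8 against 3 weeks), so the 2 tables share 4 libraries and their values are only set side by side. Its values are given as 8 weeks over 3 weeks. The AW011738 promoter was -2.11 with MO and 1.16 with age in control females. Skida1 was -1.54 and 0.99, Myt1l -1.72 and 1.42, Zc3h15 -1.46 and 0.60, Nfrkb -1.73 and 0.80, Foxa2 -1.40 and 0.94, and Ppara -1.43 and 0.31. Each of these bins had the opposite sign in the ageing table, in which CF_8w stands on the other side of the ratio. Of the 10 named higher bins in genes, Adam29 alone was listed in the ageing table (1.38 and -0.76).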

How the data were processed

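Liver H3K9me3 ChIP-seq of 4 MF_8w and 4 CF_8w libraries was read from the authors' deposited table of their contrast. As the methods describe, reads were mapped by the authors with BWA (mm10, GRCm38), broad peaks came from MACS2, and they removed blacklisted regions, merged the peaks of the conditions of each sex, counted reads with featureCounts in bins of 500 bp of longer peaks, and ran edgeR's exact test. Per bin, the authors deposited the log2 fold change and the log2 of the average CPM, and beside them an unadjusted p-value and its Benjamini-Hochberg FDR. The FDR covered at least 169972 bins, more than the 116257 listed. The table holds comparisons and no counts per library, so the depth of each library was not analysed here and the planned test is the deposited one.

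The deposited annotation names the nearest start. A gene was named here by the transcript that holds the bin, with transcript names from GENCODE M21 (same build; the authors used a later release) and transcripts longer than 2.5 Mb set aside, and otherwise by that start. GC content, CG and soft-masked repeats were computed from GRCm38.p6. The SE was the absolute log2 fold change over the normal quantile of p, undefined for the 7229 bins whose p-value is 1. Bins of 2 tables were matched where they overlapped by at least 50% of both. Named bins were, at p under 0.001 and per direction, the 10 smallest p in promoters or gene bodies and the 3 smallest in intergenic sequence (1 per gene), from each of 23 gene lists the 2 smallest p under 0.01, genes with at least 2 bins at p under 0.01, and the 2 bins on either side of p 0.001. Members, lists and settings were chosen with earlier results of these data known, so no list is independent support. Some items that the rule names are not reported here. The functions were tested on simulated data. Alternatives were other thresholds and adjustments, filters on signal and peak length, merging, chromosome X, centring and removal of the GC and CPM trend. Python 3.11.15, numpy 2.4.6, pandas 2.3.3 and scipy 1.17.1 were used.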

Additional observations from a re-analysis of the deposited data

How the results depend on the processing

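Against 184 called bins (76 higher and 108 lower), there were 1681 (788 and 893) at p under 0.01, 18 (7 and 11) at p under 0.0001, 0 in either direction after adjustment over the autosomal bins alone (smallest adjusted p 0.423, with 7711 bins at an unadjusted p under 0.05), 81 (29 and 52) among bins with a signal above the median, and 59 (32 and 27) among single-bin peaks. A minimum fold change, merging, chromosome X, centring and trend removal kept each of the 3 counts within 1.5 times, between 179 and 188 in all. The promoter share of the calls was 33.7%, 25.5% for promoters of 1 kb and 20.3% in single-bin peaks, where the gene body share was 50.8% in place of 38.6%. Alternatives for the promoter calls (13 higher and 49 lower), and trend removal for 2 gene lists, were chosen after seeing the data. For the promoters, trend removal gave 29 and 25, leaving out the decile of highest GC content left 12 and 18, and single-bin peaks left 4 and 8. The first of these is built to remove the GC trend and takes out part of the promoter shift with it, and the others hold fewer bins. The same-sign share with males was 100% by identical coordinates, which left 1 called bin. Trend removal reversed none of the 58 named bins at p under 0.001 and left 45 of them past that threshold, and adjustment over the autosomal bins left none at an adjusted p under 0.05. No paired analysis was possible because the table holds comparisons and no values per library, although the groups share replicate numbers, and for the same reason no library could be left out in turn. Bins of about 6 CPM (median 6.14) limit what single bins can show.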
